A study of Mus musculus with 6 samples.

Results

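The TGF-beta and activin axis was followed in tumor-associated macrophages (TAMs) through 10 genes: the TGF-beta ligands Tgfb1, Tgfb2 and Tgfb3, the activin subunit Inhba, the receptors Tgfbr1, Tgfbr2 and Acvr1, the signal transducers Smad3 and Smad7, and the TGF-beta-induced matrix gene Tgfbi. They were picked by symbol, through their mouse Ensembl IDs, from the 56980 genes of the deposited expression table, and all 10 were measured above the filter on low values in the libraries used. TAMs were sorted as live CD45+CD11b+Ly6G-F4/80+ cells from intraperitoneal ID8 tumors, ID8 being a mouse ovarian surface epithelial cancer line, in 3 WT and 3 C5aR-/- libraries. All hosts were female, 6 to 8 weeks old and of the C57BL/6 background, and tumors were taken 2 months after injection. C5aR-/- mice lack the receptor for the complement fragment C5a in every host cell and not in macrophages alone, while the injected ID8 cells were the same in both groups and no agent was given. RNA was read as TPM, a transcript level corrected for length and scaled to a total of 1000000 in each library, so that different genes can be set side by side. The labels do not say whether each library is a separate mouse, and the study's legend counts more mice per group than the 3 libraries used here, so the p-values measure the spread between these 6 libraries.

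TGF-beta ligands are secreted in a latent form, are set free by integrins or proteases, and bind TGFBR2, which recruits and phosphorylates TGFBR1. TGFBR1 then phosphorylates SMAD2 and SMAD3, which enter the nucleus with SMAD4, while SMAD7 is induced by the same signal and blocks the receptor as a negative feedback. Activin A is a dimer of the subunit that Inhba encodes, signals through related receptors to the same SMADs, and is antagonized by inhibin, in which the Inha product pairs with an activin subunit. In tumors, TGF-beta is known for limiting T cell responses and for driving matrix deposition by stromal cells, and macrophages are both a source and a target of it.

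The start regions of the ligand genes that the results below turn on differ in sequence, and the 250 bases before the annotated start of Inhba, Tgfb1 and Tgfb2 are printed for that comparison (RefSeq, GRCm38.p6, 5′ to 3′ on the gene's strand, with each CpG in capitals). They lie at chr13:16011601-16011850 on the plus strand, chr7:25686752-25687001 on the plus strand and chr1:186705990-186706239 on the minus strand.
Inhba: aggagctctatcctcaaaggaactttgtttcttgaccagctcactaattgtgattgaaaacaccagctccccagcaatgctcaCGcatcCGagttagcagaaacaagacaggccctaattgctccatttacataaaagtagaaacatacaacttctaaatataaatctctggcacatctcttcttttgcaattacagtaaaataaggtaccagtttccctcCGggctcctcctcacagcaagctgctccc
Tgfb1: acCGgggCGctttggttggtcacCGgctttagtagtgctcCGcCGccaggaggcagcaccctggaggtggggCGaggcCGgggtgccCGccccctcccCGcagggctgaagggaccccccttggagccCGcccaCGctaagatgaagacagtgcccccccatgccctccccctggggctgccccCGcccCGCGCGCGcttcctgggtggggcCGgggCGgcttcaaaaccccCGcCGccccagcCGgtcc
Tgfb2: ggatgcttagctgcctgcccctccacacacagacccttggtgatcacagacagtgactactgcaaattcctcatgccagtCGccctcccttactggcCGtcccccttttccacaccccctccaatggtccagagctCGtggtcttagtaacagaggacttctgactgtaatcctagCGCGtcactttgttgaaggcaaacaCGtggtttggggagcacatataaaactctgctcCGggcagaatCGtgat
The Inhba stretch had a GC content of 43.2% and 3 CpGs, against 75.2% and 21 CpGs for Tgfb1 and 53.6% and 8 CpGs for Tgfb2. Over 32851 RefSeq promoters of the same length the median was 52.4% and 6 CpGs. The letters TATAAA, searched on both strands, were present in Inhba at position -91 and in Tgfb2 at position -31 relative to the start site, and 12.4% of all promoters held them. The GC box GGGCGG occurred 5 times in Tgfb1 and in neither of the others, with a share of 32.7% over all promoters. The SMAD box CAGACA was present in Tgfb2 once, where 17.1% of all promoters held it. The SMAD palindrome GTCTAGAC (0.167% of all promoters), the AP-1 letters TGANTCA (6.75%) and the CRE letters TGACGTCA (1.55%) matched in none of these 3 stretches. Such matches describe the letters and are not binding sites.

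C5ar1, the deleted gene, was read at 86.5, 37.3 and 16.2 TPM in the 3 WT libraries and at 0.38, 0.11 and 0.05 TPM in the 3 C5aR-/- libraries, as the labels state. Of the 14776 genes that reached 1 TPM in 3 or more libraries, none was past the adjusted threshold, a level of 0.05 together with a 2-fold change (limma on log2(TPM + 1), Benjamini-Hochberg adjustment), a share of 0% called, and the smallest adjusted p was 0.0666; 2 genes passed when limma was run without its trend. At the unadjusted threshold, which set the same limits before adjustment, 314 genes (2.13%) were higher and 419 (2.84%) lower in C5aR-/- TAMs. In all, 2133 genes (14.4%) were past the unadjusted 0.05 level when the size of the change was left aside. Complete separation of the 3 WT from the 3 C5aR-/- values was seen for 1306 genes (8.84%) in the higher and 1845 genes (12.5%) in the lower direction. C5aR-/- library 1 stood apart in several of the results that follow, and the values without it are given beside them. Summed TPM of 10 macrophage markers ran from 2580 to 8920 in WT and from 2560 to 8760 in C5aR-/- libraries. The range of this sum was wide within each group and nearly the same in both. Lyz2 was its largest part, at 1408.3 to 5811.6 TPM in WT and 1150.6 to 4787.4 TPM in C5aR-/- libraries. Of the 10 markers, 1 (Fcgr1) was higher in C5aR-/- TAMs without overlap, so the sum does not stand for each marker. In bulk samples, fewer cells of a type and less RNA per cell cannot be told apart.

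Among the 10 genes, Smad7 passed the unadjusted threshold with a 2-fold change, Inhba had the larger difference but was split among the C5aR-/- libraries, and the other 8 differed by less than 2-fold. None passed the adjusted threshold, and their adjusted p-values in limma ran from 0.0965 to 0.95. Mean log2 levels were higher in C5aR-/- TAMs for 8 genes and lower for 2, with a median difference of 0.26, against -0.05 over all genes tested. The groups did not overlap for Tgfbr1 and Smad7, both higher in C5aR-/- TAMs, and overlapped for the other 8. Over all genes tested, 8.84% were higher and 12.5% lower without overlap. Smad7 was 1 of 10 called at the unadjusted threshold, at which 2.13% of all genes were higher and 2.84% lower.

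**Figure D1:**
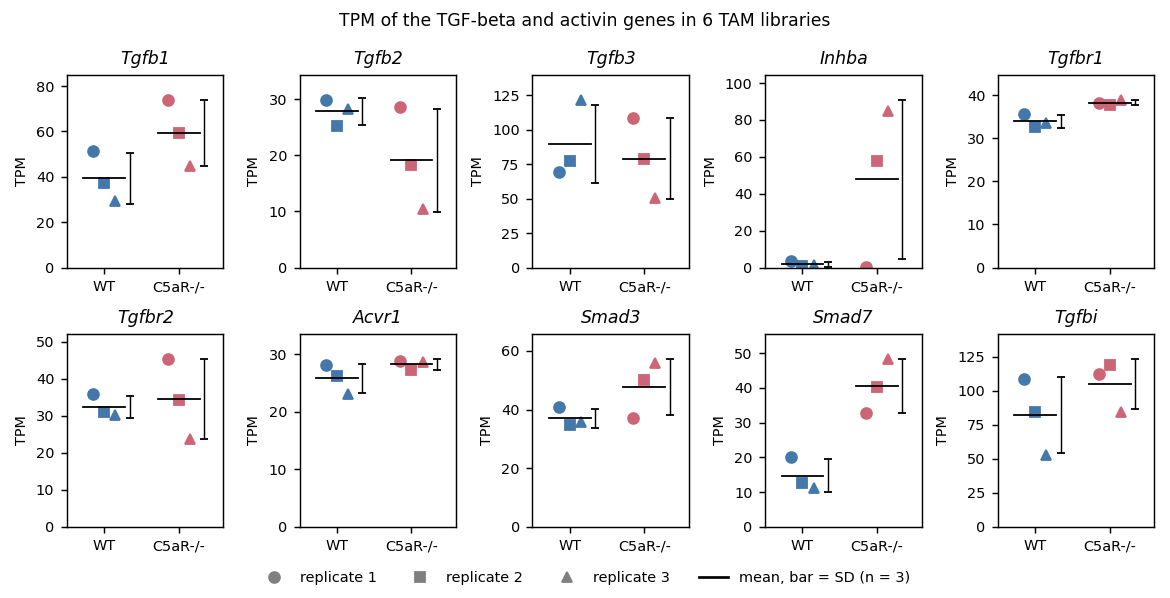
TPM of the 10 genes in each library, 1 panel per gene with an axis from 0, 1 point per library with a symbol for each replicate number, a line at the group mean and a bar for the SD (n = 3). The 3 C5aR-/- values of Smad7 (32.8 to 48.3 TPM) lie above the 3 WT values (11.3 to 20.1 TPM), while Inhba is high in 2 of the 3 C5aR-/- libraries.

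In WT TAMs, the most abundant of the 10 transcripts were Tgfb3, at 89.3 ± 28.3 TPM (SD, n = 3), and Tgfbi, at 81.9 ± 27.9 TPM, which overlapped each other. Tgfb1, Smad3, Tgfbr1 and Tgfbr2 formed the next level, with means of 32.3 to 39.3 TPM and overlapping values between neighbours. Tgfb2 and Acvr1 followed with 27.8 and 25.9 TPM, then Smad7 with 14.7 TPM and last Inhba with 1.82 TPM. The 4 boundaries between these levels separated neighbours whose WT values did not overlap. Genes that were not neighbours could overlap across a boundary, as Tgfb1 (lowest WT value 29.3 TPM) did with Tgfb2 (highest 29.9 TPM). In C5aR-/- TAMs the order of mean TPM was Tgfbi, Tgfb3, Tgfb1, Inhba, Smad3, Smad7, Tgfbr1, Tgfbr2, Acvr1 and Tgfb2, and every pair of neighbours overlapped. Smad7, which was below the 3 receptors in all WT libraries, had the higher mean in C5aR-/- TAMs, where its values overlapped those of Tgfbr1 and Tgfbr2.

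Tgfb1 encodes the main isoform of immune cells and lies on chromosome 7 (25687002 to 25705077, plus strand, GRCm38). Its level was 51.3, 37.2 and 29.3 TPM in WT and 74.0, 59.5 and 44.9 TPM in C5aR-/- TAMs. C5aR-/- libraries 1 and 2 lay above the WT range and library 3 inside it. The difference was 0.59 on the log2(TPM + 1) scale (SE 0.26, 95% interval -0.03 to 1.22, limma adjusted p = 0.366). Within each group, Tgfb1 was ordered as the summed macrophage markers were, highest in library 1 and lowest in library 3. Tgfbr2 was the other gene of the 10 with this order in both groups, and 6.83% of all genes tested shared it. The part of macrophage content in the Tgfb1 level was not tested.

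Tgfb2 and Tgfb3 encode isoforms better known from epithelial and stromal cells, and lie on chromosome 1 (186622792 to 186705989, minus strand) and chromosome 12 (86056745 to 86079041, minus strand). Tgfb2 was read at 29.9, 25.2 and 28.3 TPM in WT and at 28.6, 18.2 and 10.4 TPM in C5aR-/- TAMs. The first C5aR-/- library lay inside the WT range and the other 2 below it, for a log2 difference of -0.62 (SE 0.34, 95% interval -1.43 to 0.18, limma adjusted p = 0.445). Without C5aR-/- library 1 the difference was -0.96 (limma adjusted p = 0.104) and without library 3 it was -0.27. Tgfb3 was read at 69.2, 77.1 and 121.8 TPM in WT and at 108.3, 78.7 and 50.2 TPM in C5aR-/- TAMs. In WT, Tgfb3 had the reverse order of the summed macrophage markers (8920, 3670 and 2580 TPM). In C5aR-/- TAMs, Tgfb2 and Tgfb3 both had the same order as these markers (8760, 5020 and 2560 TPM). The groups of Tgfb3 overlapped over most of their range, with a log2 difference of -0.20 (SE 0.33, 95% interval -0.98 to 0.59, limma adjusted p = 0.821). Its sign turned to 0.045 without WT library 3 and to 0.091 without C5aR-/- library 3. The span of Tgfb3 overlaps that of Ttll5, a gene on the other strand at 14.8 to 39.1 TPM, but their exons do not overlap. The libraries were made strand-specific, but whether strand was used in the estimate is not given in the sources used here.

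The mix of the 3 isoforms did not overlap between the groups for Tgfb1 and Tgfb2, whose levels did. Tgfb1 made up 34.1%, 26.6% and 16.4% of the summed TGF-beta ligand TPM in the WT libraries and 35.1%, 38.0% and 42.6% in the C5aR-/- libraries. All 3 C5aR-/- shares were above all 3 WT shares, with means of 25.7% ± 8.91 and 38.6% ± 3.79 (SD, n = 3). The Tgfb2 share was 19.9%, 18.1% and 15.8% in WT and 13.6%, 11.7% and 9.88% in C5aR-/- TAMs. These did not overlap either, with means of 17.9% ± 2.05 and 11.7% ± 1.85. The Tgfb3 share was 46.0%, 55.3% and 67.9% in WT and 51.4%, 50.3% and 47.5% in C5aR-/- TAMs and overlapped. No test was run on the shares, and 3 against 3 libraries cannot give an exact permutation p below 0.1. The summed ligand TPM was 150, 139 and 179 in WT and 211, 156 and 106 in C5aR-/- TAMs, so the totals overlapped. The Tgfb1 share was highest in the WT library with the highest summed macrophage markers and in the C5aR-/- library with the lowest.

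**Figure D2:**
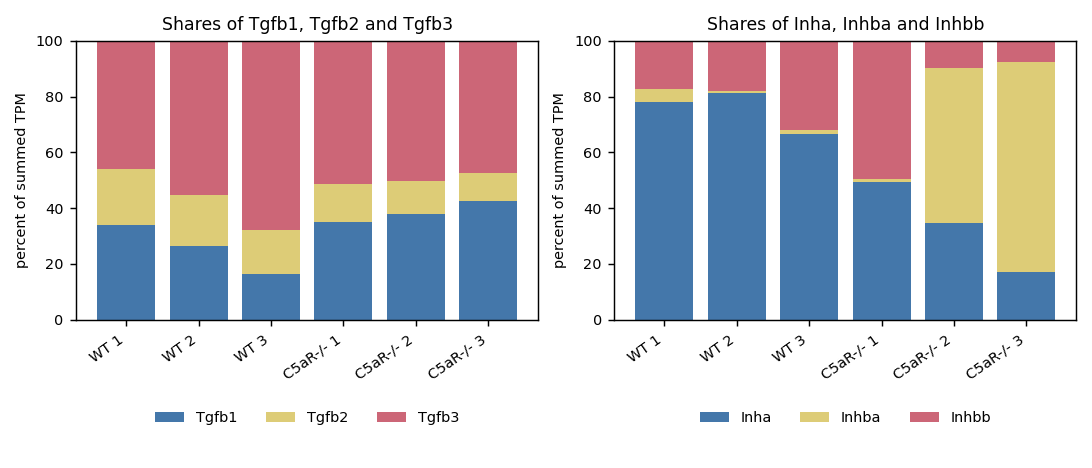
Shares in percent of summed TPM, 1 bar per library, for Tgfb1, Tgfb2 and Tgfb3 on the left and for the activin and inhibin subunits Inha, Inhba and Inhbb on the right. Tgfb1 takes 16.4% to 34.1% in WT and 35.1% to 42.6% in C5aR-/- libraries, and Inhba takes 55.6% and 75.3% in C5aR-/- libraries 2 and 3 and 4.53% or less in the other 4.

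Inhba, the activin A subunit gene on chromosome 13 (16011851 to 16031621, plus strand), was the lowest of the 10 in WT TAMs, at 3.46, 0.88 and 1.13 TPM. In C5aR-/- TAMs it was read at 0.49, 57.8 and 85.0 TPM, that is, at the lowest value of all 6 libraries in the first and at high levels in the other 2. The group means were 1.82 ± 1.42 and 47.8 ± 43.2 TPM (SD, n = 3), a ratio of 26.2, and 0.23% of the genes tested had a larger absolute difference. The difference was 2.91 on the log2(TPM + 1) scale with an SE of 1.48 (95% interval -0.63 to 6.44, limma adjusted p = 0.425), so it did not pass. Without C5aR-/- library 1 it was 4.77 (SE 0.42, limma adjusted p = 0.0162), a call that rests on 2 libraries of that group, whereas it was 2.11 without library 2 and 1.84 without library 3. Over all alternatives the difference ran from 1.84 to 4.77 and its limma adjusted p from 0.0162 to 0.782. By a rule set after its values were seen, a gene followed Inhba if C5aR-/- libraries 2 and 3 were at least 2 times the highest WT value and library 1 was not above it. That held for 151 of 14776 genes (1.02%), for no other of the 10, and in the wider pathway for Bgn, Col1a1 and Snai1.

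Inha, the inhibin subunit gene on chromosome 1 (75507077 to 75510366, plus strand), moved the other way. It was read at 59.8, 75.9 and 54.0 TPM in WT and at 21.4, 35.9 and 19.4 TPM in C5aR-/- TAMs. Every C5aR-/- value was below every WT value, for a log2 difference of -1.31 (SE 0.26, limma adjusted p = 0.118), past the unadjusted threshold alone. Of the summed TPM of Inha, Inhba and Inhbb, a set put together after the values were seen, Inhba made up 4.53%, 0.941% and 1.39% in WT and 1.13%, 55.6% and 75.3% in C5aR-/- libraries. Inha made up 78.2%, 81.2% and 66.6% in WT and 49.3%, 34.5% and 17.2% in C5aR-/- libraries. Inhbb, the activin B subunit gene, made up 17.3%, 17.9% and 32.1% in WT and 49.6%, 9.93% and 7.50% in C5aR-/- libraries. The inhibin subunit was thus the largest share in each WT library, Inhbb was level with it in C5aR-/- library 1, and the activin A subunit was the largest in C5aR-/- libraries 2 and 3.

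Tgfbr1 and Tgfbr2, the type I and type II receptors of TGF-beta on chromosome 4 (47353222 to 47414931, plus strand) and chromosome 9 (116084293 to 116175360, minus strand), were close in level. Tgfbr1 was read at 35.6, 32.5 and 33.6 TPM in WT and at 38.2, 37.7 and 39.0 TPM in C5aR-/- TAMs. It had the smallest SD of the 10 in C5aR-/- TAMs (0.617 TPM) and did not overlap between groups, and the log2 difference was 0.17 (SE 0.12, 95% interval -0.11 to 0.45, limma adjusted p = 0.552). Tgfbr2 was read at 35.8, 31.1 and 30.2 TPM in WT and at 45.4, 34.4 and 23.7 TPM in C5aR-/- TAMs. The C5aR-/- values spread on both sides of the WT range (log2 difference 0.05, SE 0.24, 95% interval -0.53 to 0.62, limma adjusted p = 0.95). Acvr1 encodes ALK2, a type I receptor used mainly by BMPs and bound by activins, and lies on chromosome 2 (58388644 to 58567157, minus strand). It was read at 28.1, 26.3 and 23.2 TPM in WT and at 28.9, 27.2 and 28.7 TPM in C5aR-/- TAMs, with overlapping groups and a log2 difference of 0.13 (SE 0.14, 95% interval -0.20 to 0.45, limma adjusted p = 0.709), or 0.054 without WT library 3. The intervals of all 3 receptors leave out a 2-fold difference in either direction.

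Smad3, the receptor-activated transcription factor of the axis (chromosome 9, 63646767 to 63757994, minus strand), was read at 40.8, 34.6 and 35.7 TPM in WT and at 37.0, 50.1 and 55.8 TPM in C5aR-/- TAMs. C5aR-/- library 1 lay inside the WT range and the other 2 above it (log2 difference 0.34, SE 0.18, 95% interval -0.10 to 0.77, limma adjusted p = 0.446). Without library 1 the Smad3 difference was 0.50 (limma adjusted p = 0.12), and without C5aR-/- library 3 it was 0.22. Smad7, the inhibitory SMAD (chromosome 18, 75367529 to 75395935, plus strand), was read at 20.1, 12.7 and 11.3 TPM in WT and at 32.8, 40.3 and 48.3 TPM in C5aR-/- TAMs. The lowest C5aR-/- value was above the highest WT value, and the means were 14.7 ± 4.75 and 40.4 ± 7.76 TPM (SD, n = 3), a ratio of 2.76. The difference was 1.43 on the log2(TPM + 1) scale (SE 0.25, 95% interval 0.82 to 2.03, limma adjusted p = 0.0965), and 3.04% of the genes tested had a larger absolute difference. The exact permutation test gave p = 0.1, the smallest that 3 against 3 libraries allow. Across all alternatives the Smad7 difference stayed between 1.27 and 1.66, with adjusted p-values of 0.0421 to 0.415, the lowest without C5aR-/- library 1. In the C5aR-/- libraries, Smad3, Smad7 and Inhba had the reverse order of the summed macrophage markers (8760, 5020 and 2560 TPM), as did 26.9% of all genes tested. In the WT libraries Smad7 had the same order as these markers, as did Tgfb1, Tgfbr2, Tgfbi and Acvr1 and 15.5% of all genes tested.

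Tgfbi encodes a secreted matrix protein, is named for its induction by TGF-beta and lies on chromosome 13 (56609523 to 56639562, plus strand). It was read at 108.6, 84.4 and 52.9 TPM in WT and at 112.5, 118.8 and 84.2 TPM in C5aR-/- TAMs. The groups overlapped, with a log2 difference of 0.40 (SE 0.28, 95% interval -0.27 to 1.07, limma adjusted p = 0.557). It was 0.12 without WT library 3 and 0.63 without WT library 1.

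**Figure D3:**
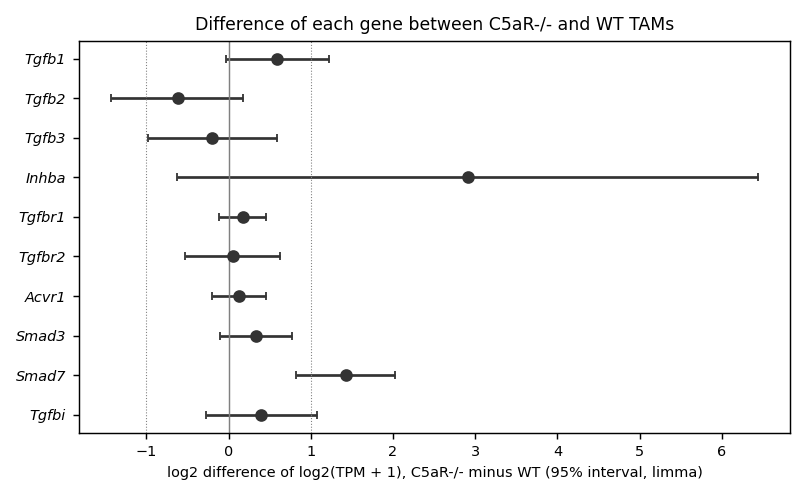
Difference of C5aR-/- from WT TAMs on the log2(TPM + 1) scale for the 10 genes, with 95% intervals from limma as lines. The interval of Smad7 (0.82 to 2.03) lies wholly above 0, and that of Inhba is the widest (-0.63 to 6.44).

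The rest of the pathway was read from 6 lists holding 89 genes, and 72 passed the filter. Among them, 4 (5.56%) were higher and 2 (2.78%) lower in C5aR-/- TAMs at the unadjusted threshold with a 2-fold change, against 2.13% and 2.84% of all genes, and none passed the adjusted threshold. Values did not overlap for 12 genes (16.7%) in the higher and 7 (9.72%) in the lower direction, against 8.84% and 12.5% of all genes, and the median log2 difference was 0.11. By list, that median was 0.22 for response genes, 0.16 for latency and activation, 0.11 for antagonists, 0.05 for SMAD proteins and regulators, 0 for ligands and -0.24 for receptors. Without C5aR-/- library 1, 15 of the 72 (20.8%) passed the unadjusted threshold, against 8.57% of all genes in that fit. The largest differences were those of Col1a1 (3.76), Mmp2 (2.23) and Col1a2 (-1.77). The lists were chosen with earlier results of these data known, and library 1 was singled out from these same values. The shares therefore describe the listed genes and are no test of the pathway.

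Of 16 tested genes of TGF-beta latency and activation, 1 passed the unadjusted threshold. This was Mmp2, a gelatinase that can release latent TGF-beta, at 1.28, 0.87 and 0.81 TPM in WT and 2.56, 6.93 and 9.84 TPM in C5aR-/- TAMs, with no overlap (log2 difference 1.77, SE 0.42, limma adjusted p = 0.162). Ltbp3, which tethers the latent complex and was the most abundant of that list, ran from 182.5 to 299.1 TPM in WT and from 230.0 to 508.9 TPM in C5aR-/- TAMs, with overlap (log2 difference 0.57, adjusted p = 0.46). Of 22 tested TGF-beta response genes, 2 passed in the higher and 1 in the lower direction. Ccn2, a matricellular target of TGF-beta and YAP signaling, was read at 185.3, 148.6 and 241.0 TPM in WT and at 416.4, 469.9 and 497.1 TPM in C5aR-/- TAMs. All 3 C5aR-/- values were above the WT range, for a log2 difference of 1.29 (SE 0.20, limma adjusted p = 0.08). Cx3cr1, the fractalkine receptor of macrophages and microglia, was read at 8.08, 5 and 7.83 TPM in WT and at 40.7, 21.7 and 14.2 TPM in C5aR-/- TAMs, again without overlap (log2 difference 1.63, SE 0.39, limma adjusted p = 0.162). Col1a2, a fibrillar collagen chain, was lower, at 4.50, 10.3 and 23.6 TPM in WT and 1.75, 2.31 and 2.46 TPM in C5aR-/- TAMs (log2 difference -1.87, SE 0.52, limma adjusted p = 0.207). Another collagen gene of this list, Col1a1, had the higher mean in C5aR-/- TAMs (93.5 against 7.16 TPM). Its groups overlapped (log2 difference 1.91, SE 1.56, limma adjusted p = 0.618). Junb, an AP-1 gene and the most abundant of the response list, ran from 673.9 to 1172.3 TPM in WT and from 775.6 to 1982.6 TPM in C5aR-/- TAMs and overlapped (log2 difference 0.71, adjusted p = 0.46; without C5aR-/- library 1 it was 1.13, adjusted p = 0.0845).

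Of 9 tested antagonists and decoys, Inha was lower and Bgn higher at the unadjusted threshold. Bgn, a small proteoglycan that binds TGF-beta, was read at 182.8, 171.3 and 214.5 TPM in WT and at 195.9, 601.2 and 539.6 TPM in C5aR-/- TAMs. C5aR-/- library 1 lay inside the WT range (log2 difference 1.08, SE 0.42, limma adjusted p = 0.318), and without it the difference was 1.59 (adjusted p = 0.0167). Leaving out any of the other 5 libraries ended the unadjusted call, with differences of 0.78 to 1.17. Dcn, a related proteoglycan and the most abundant of that list, differed by -0.38 (adjusted p = 0.702). None of 8 tested receptors or of 18 SMAD proteins and regulators passed the unadjusted threshold with a 2-fold change, and Inha was the only one of 6 tested ligands that did. The most abundant genes of the receptor, regulator and ligand lists were Acvrl1 (log2 difference -0.70, adjusted p = 0.601, or -1.30 with 0.101 without C5aR-/- library 1), Fkbp1a (0.58, adjusted p = 0.266) and Gdf15 (0.92, adjusted p = 0.712). Gdf15 was read at 213.3 TPM in C5aR-/- library 1 and at 10.9 to 42.5 TPM in the other 5 libraries.

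**Figure D4:**
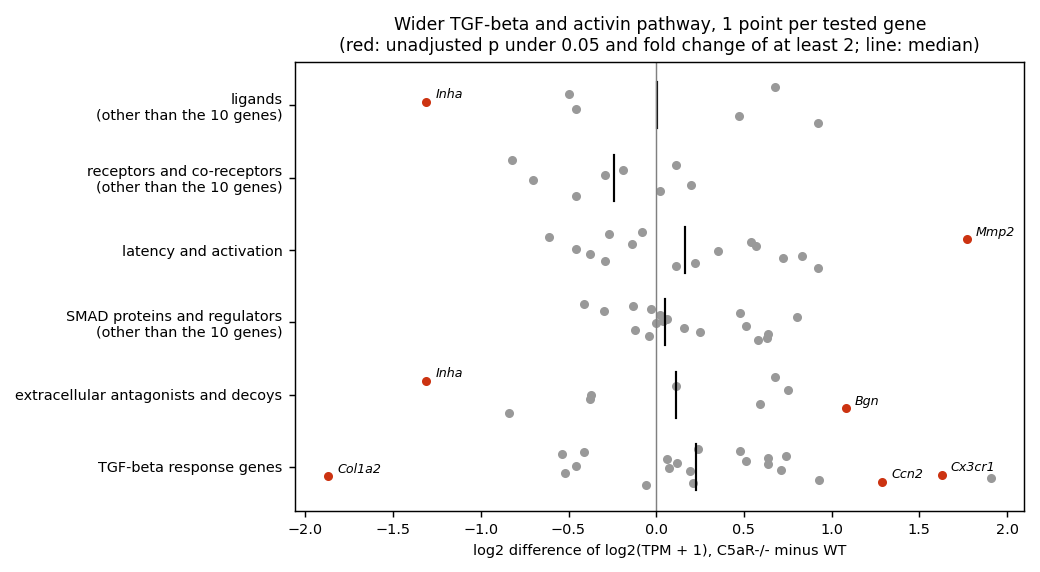
Log2(TPM + 1) difference of C5aR-/- from WT TAMs for each tested gene of the 6 wider lists, 1 point per gene in each list that holds it and a line at the list's median. The 6 genes, in red, past the unadjusted threshold with a 2-fold change are Mmp2, Bgn, Ccn2 and Cx3cr1 on the higher and Inha and Col1a2 on the lower side.

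Markers of other cell types were present in the sorted samples and some of them moved with the group. Summed neutrophil markers (S100a9 highest) were 583 to 2090 TPM in WT and 23.2 to 327 TPM in C5aR-/- libraries, with all 5 markers lower without overlap. Summed markers of large peritoneal macrophages (Prg4 highest) were 293 to 1510 TPM in WT and 118 to 242 TPM in C5aR-/- libraries, with 3 of 10 lower without overlap. Prg4, 1 of these 3, ran from 68.3 to 776.6 TPM in WT and from 3.87 to 48.7 TPM in C5aR-/- libraries. Gata6, of the same list, overlapped at 91.1 to 116.2 TPM and 86.8 to 104.4 TPM. Summed mesothelial markers (Cpe highest) were 2030 to 2420 TPM and 1220 to 1910 TPM, with 4 of 8 lower and 1 higher without overlap. The neutrophil, large peritoneal macrophage and mesothelial sums and the level of Inha were lower in C5aR-/- libraries without overlap. The levels of Smad7 and Tgfbr1 were higher without overlap. Of all genes tested, 12.5% were lower and 8.84% higher without overlap. Summed epithelial and ID8 markers (Krt19 highest) were 1840 to 2040 TPM in WT and 1670 to 2210 TPM in C5aR-/- libraries. Of these 8 markers, 1 (Krt8) was higher without overlap, at 455.3 to 464.6 TPM in WT and 624.0 to 757.5 TPM in C5aR-/- libraries. Those of fibroblasts were 406 to 608 TPM and 440 to 557 TPM, with 2 of 8, among them Col1a2, lower without overlap. Most of that sum was Dcn, at 373.4 to 531.3 TPM in WT and 180.1 to 547.9 TPM in C5aR-/- libraries. Col1a1, of the same list, was read at 3.52, 7.13 and 10.8 TPM in WT and at 1.21, 43.3 and 235.9 TPM in C5aR-/- libraries. By the rule given above, Col1a1 followed Inhba. Mast cell markers summed to 82.6 to 136 TPM and 59.4 to 87.8 TPM (Kit, the highest, was higher and the other 4 lower in C5aR-/- TAMs without overlap), T cell markers (Trac) to 24.9 to 85.8 TPM and 21.0 to 54.0 TPM, and B cell markers (Cd79a) to 32.1 to 160 TPM and 8.09 to 154 TPM. Summed endothelial markers (Pecam1) were 12.8 to 18.5 TPM in WT and 10.1 to 27.5 TPM in C5aR-/- libraries, with 1 of 6 lower without overlap. Those of dendritic cells (Ccr7) were 38.3 to 43.5 TPM and 29.0 to 69.0 TPM. Those of platelets (Itga2b) were 6.39 to 11.3 TPM and 8.56 to 9.93 TPM, with 2 of 4 higher without overlap. No list had a marker at 0 in all 6 libraries. The part of these cell types in the Smad7, Tgfbr1, Inha, Inhba, Tgfb1, Tgfb2 and Tgfb3 values was not tested.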

How the data were processed

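RNA of sorted TAMs was sequenced in 3 WT and 3 C5aR-/- libraries, grouped by their labels. Per the methods and the submitters' processing notes, the authors trimmed reads with fastp, aligned them to mm10 with HISAT2, estimated expression with StringTie and tested groups with DESeq2. The notes also name RSEM, whose role, like versions and the annotation release, is not given in the sources used here. The methods describe FPKM. The deposited values are instead TPM per gene, beside a mean TPM per group made by the authors that was left unused. TPM keeps no depth, so the depth is unknown and a value of 0 may be a failed estimate.

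Genes that reached 1 TPM in 3 or more libraries were fitted on log2(TPM + 1) with limma 3.58.1 (R 4.3.3, eBayes with trend), with Benjamini-Hochberg adjustment over all 14776 genes; because of the pseudocount, fold changes of low genes are understated. Calls needed an adjusted or, separately, an unadjusted limma p below the 0.05 level and a 2-fold change. Count-based tests could not be used on TPM. Ensembl IDs were named through GENCODE M21, which gave 52073 of them a symbol. Named genes were the 10 members, C5ar1, genes of 6 pathway lists past the unadjusted threshold and the most abundant of each pathway and marker list. Members and lists were chosen with earlier results of these data known. Alternatives were another pseudocount, filter, scaling, eBayes without trend, a replicate block and each library left out. The main fit did not pair libraries by number. Deviations from the group means of same-numbered libraries correlated at 0.19, -0.01 and 0.27, and those of differently numbered ones at -0.23 to 0.09. These values do not settle whether the libraries were paired.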

Additional observations from a re-analysis of the deposited data

How the results depend on the processing

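Limits rest on 3 libraries a group and on C5aR-/- library 1. Without that library, 2 of the 10 genes passed both the unadjusted threshold with a 2-fold change and the adjusted one (Inhba, 4.77, adjusted p = 0.0162, and Smad7, 1.57, adjusted p = 0.0421). With each library left out in turn, 1 to 2 of the 10 passed the unadjusted and 0 to 2 the adjusted threshold, against 1 and 0 with all libraries. Over all genes, 567 to 1266 passed the unadjusted threshold (733 with all libraries) and 0 to 356 the adjusted one, both highest without C5aR-/- library 1; 1 gene passed it without C5aR-/- library 2 and 3 genes without library 3. In the wider lists, 5 to 15 genes passed the unadjusted and 0 to 3 the adjusted threshold, against 6 and 0, again highest without C5aR-/- library 1, where Mmp2, Bgn and Ccn2 had adjusted p-values of 0.0199, 0.0167 and 0.0368. With a TPM of at least 5 required, 475 genes passed the unadjusted threshold, as fewer were tested, and Inhba, Mmp2 and Col1a2 had no value; with a pseudocount of 0.1 the count was 919. Without the eBayes trend, 2 genes passed the adjusted threshold. The Tgfb3 difference (-0.20) turned to 0.045 without WT library 3 and to 0.091 without C5aR-/- library 3, over a range of -0.46 to 0.091 with 1 library left out, and that of Tgfbr2 (0.05) to -0.00068 without WT library 3 and to -0.17 without C5aR-/- library 1, over a range of -0.17 to 0.28. The difference in share was 8.18 to 17.1 percentage points for Tgfb1, -7.29 to -5.24 for Tgfb2 and -11.8 to -0.896 for Tgfb3. The cause of these changes was not tested.

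With the replicate number as a block, 811 genes passed the unadjusted threshold and 0 the adjusted one, and 1 of the 10 genes and 6 of the wider lists passed the unadjusted one. The replicate block left the Tgfb1 difference at 0.59, with an unadjusted p of 0.00652 but an adjusted limma p of 0.18. WT libraries 1 and 3 correlated best with the C5aR-/- library of their own number, and WT library 2 did not. The block ended no call among the 10 genes, C5ar1 and the 6 pathway genes past the unadjusted threshold.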
